A study of Mus musculus with 16 samples.

Results

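Granulocyte-macrophage progenitors (GMPs) and LSKs, the stem and multipotent progenitor compartment above them, were compared in mice whose PU.1 level is low. The comparison takes the 4 URE GMP and the 4 URE LSK libraries, 8 of the 16 RNA sequencing libraries of the series, and was chosen by the genotype and cell type in the sample labels. URE mice (written UREΔ in the study) lack the upstream regulatory element of *Spi1*, the gene that encodes PU.1, in every cell of the body. The other 8 libraries, 4 WT LSK and 4 WT GMP, come from littermates with the element intact and serve as the reference for the same step. All mice were C57BL/6 and 8 to 12 weeks old, and no mouse of these groups was treated. Cells were enriched for c-Kit from femoral bone marrow and sorted as lineage-negative Sca-1+ c-Kit+ (LSK) or as lineage-negative Sca-1- c-Kit+ Cd16/32+ (GMP). The lineage antibodies covered B cells (among them Cd45r), T cells (Cd3, Cd4, Cd8), red cells (Ter119) and granulocytes (Gr1), and the GMP gate used no Cd34. RNA came from 4 mice per genotype and cell type. Whether an LSK and a GMP library with the same number came from the same mouse is not given in the sources used here. In bulk libraries like these, fewer cells of a type and less RNA per cell cannot be told apart.

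PU.1 is an ETS family transcription factor whose level guides blood progenitors towards the myeloid and lymphoid fates. Its upstream element acts as an enhancer with strong effect in stem and progenitor cells, and PU.1 also binds that element and so helps to maintain its own gene. On the way from LSK to GMP, stem cell genes and genes primed for the lymphoid lineage are switched off, genes of the azurophil (primary) granules are switched on together with C/EBP family factors, and the cells divide and make large amounts of secretory protein. The question asked of the data was which of these changes took place when the element was deleted.

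The targeted gene was checked first. *Spi1* (ENSMUSG00000002111, chromosome 2, 91082390 to 91115756 of GRCm38) had 2.85, 4.44, 3.67 and 1.13 CPM in the URE LSK replicates 1 to 4 and 17.4, 28.6, 23.6 and 15.6 CPM in the URE GMP replicates 1 to 4, where CPM is the usual depth-scaled unit of expression, here with the TMM factors of edgeR. Every URE library lay below every WT library, which had 127, 69.5, 134 and 166 CPM in LSKs and 139, 84.8, 181 and 153 CPM in GMPs. Within URE mice, the 4 GMP libraries were all above the 4 LSK libraries. The log2 fold change of URE GMPs over URE LSKs was 2.87 (standard error, SE, 0.26, adjusted p = 0.000146), against 0.17 (SE 0.11, adjusted p = 0.193) in WT, and the difference of these changes was 2.66 (adjusted p = 0.00786). Unless another fit is named, adjusted p-values come from edgeR's quasi-likelihood test with the replicate number as a block. Benjamini-Hochberg adjustment was over all genes tested. *Spi1* RNA thus rose from a mean of 3.02 to 21.3 CPM without the element and was at 124 and 139.6 CPM with it.

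Total counts per library lay between 20028302 and 29128858 in the 8 URE libraries. The first principal component (54.7% of the variance) separated URE GMPs from URE LSKs, and the second (21.5%) separated replicates 1 and 4 from replicates 2 and 3 of both cell types. A single transcript, *Mpo*, took 5.94% to 10.3% of all counts in URE GMPs and 0.0567% to 0.116% in URE LSKs. The genes behind the sorting markers followed the gates: *Ly6a* (Sca-1) had 35.1 to 111 CPM in URE LSKs and 0.564 to 2.61 CPM in URE GMPs, and *Fcgr3* (Cd16) had 8.07 to 23.3 and 508 to 1328 CPM. Because the gates select on these proteins, their changes are not findings. Some transcripts of mature cells stood out in URE LSKs. *Igkc*, *Jchain* and *Iglc1*, which plasma cells and B cells express at high levels, were present there. *Ms4a1*, which encodes Cd20 of B cells, was too low to be tested in either genotype. *Ppbp*, a platelet chemokine, had 0.078, 0.133, 355 and 0.0836 CPM in the URE LSK replicates 1 to 4. The part of such cells in the results was not tested, and the values are given beside the genes they touch.

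After the filter on low counts, 14395 genes were tested in URE mice. Calls needed an adjusted p below 0.05 together with a fold change above 1.5, and genes are said to have risen or fallen only if they were called. The sizes of rises and falls are log2 fold changes throughout, and the difference from WT is the URE change minus the WT change on that scale. Where a WT value stands without such a difference, the difference was not called. Expression rose from LSK to GMP for 1909 genes (13.3% of those tested) and fell for 2682 (18.6%), and the median log2 fold change of all tested genes was −0.0724. These shares are the background for every list count below, and the WT shares of 15.8% and 25.1% are that for the WT counts. Among the called genes, 518 rose and 958 fell by more than 4-fold. The lowest library of one cell type was above the highest of the other, without overlap, for 3169 of the 4591 called genes and for 3808 (26.5%) of all genes tested. Within replicates 1 and 4 alone, 2242 genes rose and 2446 fell. Within replicates 2 and 3 alone, a fit with as many libraries, 737 rose and 913 fell.

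**Figure D1:**
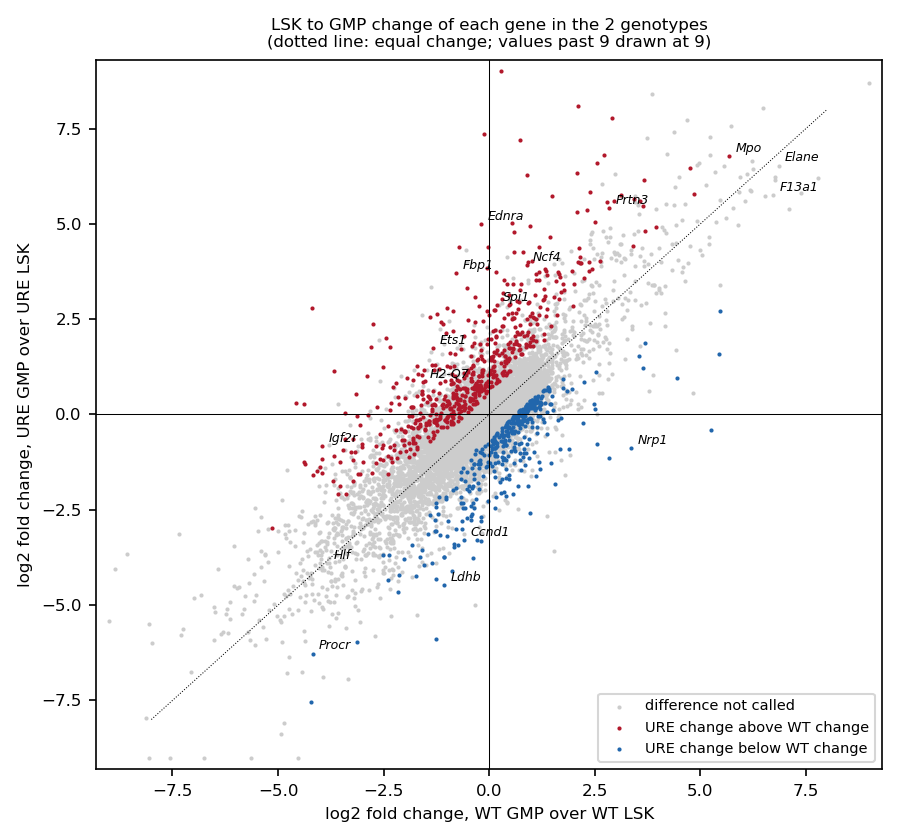
Log2 fold change of GMPs over LSKs in WT mice (horizontal axis) and in URE mice (vertical axis), 1 point per gene tested in both, with values beyond 9 drawn at 9 on either axis. Named genes are labelled. Most genes called in WT lie on the same side of 0 in URE mice, and genes with a called difference of the changes lie away from the diagonal.

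The largest rises among called genes without overlap (mean level 3 log2 CPM or more) included an eosinophil granule gene and a histamine-making enzyme. *Epx* (eosinophil peroxidase) had 0, 0, 0 and 0.167 CPM in URE LSKs and 9.45, 34.6, 13.4 and 16.9 CPM in URE GMPs, a log2 fold change of 8.69 (SE 0.70, adjusted p = 7.97e-05). *Hdc*, which makes histamine and is expressed by basophils, mast cells and early neutrophil progenitors, had 2.26 to 3.58 CPM in URE LSKs and 249 to 373 CPM in URE GMPs (log2 fold change 6.66, adjusted p = 2.07e-06). *Mpo* and *Elane*, described below, were in the same set. All 4 GMP libraries were far above all 4 LSK libraries for each of these genes.

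The same set held genes outside the granule lists. *Shroom2*, an actin-binding protein gene, had 0.351, 0.166, 0 and 0.335 CPM in URE LSKs and 49.3, 50.9, 32.5 and 56.5 CPM in URE GMPs (log2 fold change 7.78, adjusted p = 1.56e-05). In WT it reached only 1.34, 1.25, 0.684 and 1.5 CPM in GMPs, and the difference of the changes was 5.03 (adjusted p = 0.00149). *Heph*, a copper-containing ferroxidase gene, had 0 to 1.42 CPM in URE LSKs and 29.9 to 66.8 CPM in URE GMPs (log2 fold change 7.14, adjusted p = 0.000203), and WT GMPs had 0.13 to 0.467 CPM. The difference of its changes was not called (4.25, SE 2.21, adjusted p = 0.285). *Olr1*, a receptor for oxidized lipoprotein, *Dmkn*, a secreted protein gene, and *Nlrp12*, an intracellular sensor of the NLR family, rose by 7.71, 7.57 and 7.27 on the log2 scale from URE LSK levels at or below 0.164 CPM on average. Of these 3 genes, none had a called difference from WT.

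*Epha7*, an ephrin receptor gene, stood out by its start. It had 0.117, 1.16, 0.0421 and 0.125 CPM in URE LSKs and 39.7, 61.3, 35.6 and 40.1 CPM in URE GMPs (log2 fold change 7.19, adjusted p = 5.27e-05), whereas WT had 21.9, 25.3, 26 and 17.4 CPM in LSKs and 34.5, 38.6, 30 and 50.1 CPM in GMPs. URE GMPs thus overlapped WT GMPs, while every URE LSK library was far below every WT LSK library, and the difference of the changes was 6.19 (adjusted p = 0.000136). *Mgam*, which encodes a sugar-cleaving enzyme found in granulocytes, had 0.126 to 2.72 CPM in URE LSKs and 76.5 to 197 CPM in URE GMPs (log2 fold change 6.80, adjusted p = 4.63e-05), and WT GMPs reached 8.09 to 13.9 CPM, with a difference that was not called (1.41, adjusted p = 0.285). *Chst13*, a chondroitin sulfotransferase gene, rose by 6.52 (adjusted p = 0.000208) to 24.5 to 80.2 CPM.

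Among the largest falls were immunoglobulin genes. *Igkc* had 99.6, 1242, 267 and 446 CPM in URE LSKs and 0.145, 0.679, 0.82 and 0.0563 CPM in URE GMPs, and *Jchain*, which joins immunoglobulin chains, had 60.8, 364, 53.3 and 229 and 0.0482, 0.313, 0.666 and 0.113 CPM. Both varied widely among the URE LSK libraries, with replicates 2 and 4 the highest. *Iglc1* had 85.1, 0.895, 1.69 and 166 CPM in URE LSKs and a count of 0 in all 4 URE GMP libraries, so it was at least 1630-fold lower when 3 counts over the group are taken as the floor. That bound uses the URE LSK mean of 63.42 CPM, which replicates 1 and 4 carried, and it would be lower without either of them. In WT, *Igkc* went from 170.2 to 469 CPM in LSKs to 0 to 7.84 CPM in GMPs. *Pde1b*, a phosphodiesterase gene, had 6.07 to 29.3 CPM in URE LSKs and 0.0522 to 0.256 CPM in URE GMPs (log2 fold change −6.75, adjusted p = 5.74e-05). *Btla*, a receptor that restrains lymphocytes, had 61, 44.2, 26.4 and 30.4 CPM in URE LSKs and 2.65, 0.261, 0.359 and 0.338 CPM in URE GMPs, a log2 fold change of −5.89 (adjusted p = 6.01e-05) that differed from that in WT by −4.38 (adjusted p = 0.00204). *Sdc4*, a heparan sulfate proteoglycan gene, fell by 5.39 (adjusted p = 7.18e-05), with no called difference from WT. *Gria2*, a glutamate receptor subunit gene, had 46.6, 32.4, 24.6 and 26.5 CPM in URE LSKs and 0.916, 0.522, 0.615 and 0.845 CPM in URE GMPs (log2 fold change −5.51, adjusted p = 8.86e-06), and WT LSKs had 0.43 to 2.69 CPM, with a difference that was not called (adjusted p = 0.334).

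Genes of the primary granules, the first granules that neutrophil precursors make, rose as a group. Of the 15 genes listed, 13 were tested, 12 rose and none fell, with a median log2 fold change of 3.22 against −0.0724 for all genes. In WT, 11 rose with a median of 2.55. Short stretches before the start of 4 of these genes, some of the serine proteases of the granule and its peroxidase, are shown here because their products are main proteins of these granules and they rose together, and stretches before 2 stem cell genes that fell, *Procr* and *Hlf*, are shown for contrast. The sequences are from RefSeq, assembly GRCm38.p6, read in the direction of the gene and kept to bases outside annotated exons. Capitals mark each match, on either strand, to 5 short motifs. For PU.1 the motif was GAGGAA, the core of the sites it binds. Other ETS factors were represented by CCGGAA, which shares its last 4 letters with the PU.1 motif. The C/EBP family was represented by TTNNGNAA, RUNX factors by TGTGGT, which reads ACCACA from the other strand, and the GATA family of factors by AGATAA. The stretches lie at chr11:87793534-87793580 (+ strand) for *Mpo*, chr10:79886062-79886246 (+) for *Elane*, chr10:79879417-79879613 (+) for *Prtn3*, chr14:56102575-56102824 (- strand) for *Ctsg*, chr2:155750967-155751116 (+) for *Procr* and chr11:90390918-90391167 (-) for *Hlf*.
Mpo: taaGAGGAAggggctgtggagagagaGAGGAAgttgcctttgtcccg
Elane: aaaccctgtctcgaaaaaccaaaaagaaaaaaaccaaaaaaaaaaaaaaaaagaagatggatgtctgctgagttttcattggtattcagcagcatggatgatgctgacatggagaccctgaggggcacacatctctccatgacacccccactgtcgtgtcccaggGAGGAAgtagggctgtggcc
Prtn3: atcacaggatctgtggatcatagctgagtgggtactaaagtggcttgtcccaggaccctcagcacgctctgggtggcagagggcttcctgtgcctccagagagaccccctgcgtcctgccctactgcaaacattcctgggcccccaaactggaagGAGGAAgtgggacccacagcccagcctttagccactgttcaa
Ctsg: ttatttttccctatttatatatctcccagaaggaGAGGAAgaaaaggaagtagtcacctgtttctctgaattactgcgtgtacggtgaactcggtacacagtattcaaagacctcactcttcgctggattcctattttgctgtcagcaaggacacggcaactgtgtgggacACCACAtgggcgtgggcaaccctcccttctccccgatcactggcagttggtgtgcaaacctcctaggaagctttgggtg
Procr: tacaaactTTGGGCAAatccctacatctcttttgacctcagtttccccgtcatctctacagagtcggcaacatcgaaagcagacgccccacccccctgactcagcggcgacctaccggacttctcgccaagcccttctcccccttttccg
Hlf: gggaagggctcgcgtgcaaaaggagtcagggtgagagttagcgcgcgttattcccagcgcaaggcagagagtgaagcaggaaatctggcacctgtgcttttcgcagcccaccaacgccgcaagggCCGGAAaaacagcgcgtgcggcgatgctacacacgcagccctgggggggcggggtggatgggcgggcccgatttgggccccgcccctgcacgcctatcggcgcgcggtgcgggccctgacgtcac

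The 4 granule gene stretches each held GAGGAA, *Mpo* at 2 places, and neither the *Procr* nor the *Hlf* stretch did. The stretches ran from 47 bases for *Mpo* to 250 for *Ctsg* and *Hlf*, and the 4 granule genes are a pick that does not describe the whole list. Over windows of 250 bases before the start, 6 of the 11 primary granule genes with a promoter in the table (54.5%) held GAGGAA on either strand. The share was 22.4% over the promoters of all genes tested, 23.1% for genes that rose and 23.8% for genes that fell. It was 23.3% for the stem cell genes (7 of 30), 37.5% for interferon-stimulated genes and 31% for genes of secretion, so the absence from the *Procr* and *Hlf* stretches does not describe stem cell genes as a group. CCGGAA was found before 22.5% of genes that rose, 13.2% of genes that fell and 22.8% of all genes tested. TTNNGNAA was found before 32.5% of genes that rose, 27.2% of genes that fell and 29.1% of all, with 45.5% for the primary granule and 43.3% for the stem cell genes. For TGTGGT these shares were 12.5%, 10.5% and 11.3%, and for AGATAA they were 7.32%, 6.52% and 6.16%. A match describes letters in a window and does not show that a factor binds there.

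*Mpo* (myeloperoxidase; ENSMUSG00000009350, chromosome 11, 87793581 to 87804413) had 522, 1124, 854 and 749.8 CPM in the URE LSK libraries and 87025, 129220, 61020 and 89942 CPM in the URE GMP libraries. The log2 fold change was 6.78 (SE 0.30, adjusted p = 7.61e-06), and with 769, 955, 1241 and 959.6 CPM in WT LSKs and 48541, 59245, 43585 and 50721 CPM in WT GMPs the WT change was 5.69. The 4 URE GMP libraries were all above the 4 WT GMP libraries, and the difference of the changes was 1.16 (adjusted p = 0.0303). *Mpo* shares 512 exon bases with an antisense gene, and the libraries do not keep the strand. The call of the *Mpo* difference was lost without 11 of the 16 libraries, with adjusted p-values up to 0.0705.

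*Elane* (neutrophil elastase; chromosome 10, 79886247 to 79888215) had 95, 137, 134 and 129 CPM in URE LSKs and 11718, 19667, 6588 and 11939 CPM in URE GMPs, a log2 fold change of 6.53 (SE 0.32, adjusted p = 1.11e-05), and *Ctsg* (cathepsin G; chromosome 14, 56099881 to 56102574) had 46.4, 160, 89.9 and 39.4 and 2368, 7312, 4209.8 and 4537 CPM, a change of 5.85 (adjusted p = 1.04e-05). For both genes, the WT changes of 6.85 and 5.91 were close to those in URE mice, with differences of −0.14 (SE 0.39) and −0.02 (SE 0.38) that were not called. *Ms4a3*, a marker of GMPs, rose by 5.72 (adjusted p = 5.27e-05) from 1.52 to 5.01 CPM to 80.3 to 404 CPM, with replicate 2 the highest at 404 CPM.

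*Prtn3* (proteinase 3; chromosome 10, 79874476 to 79883174) and *Prss57* (a further granule serine protease; chromosome 10, 79781474 to 79790961) started lower in URE LSKs than in WT LSKs and reached levels in URE GMPs that overlap those of WT GMPs. *Prtn3* had 21.3, 59.5, 46.1 and 28.4 CPM in URE LSKs and 988, 2644, 1152 and 2025 CPM in URE GMPs, against 147, 229, 223 and 253 and 1073, 1855, 1840.4 and 1416 CPM in WT. Its log2 fold change was 5.41 (SE 0.26, adjusted p = 1.11e-05) in URE mice and 2.84 in WT, a difference of 2.61 (adjusted p = 0.000347). *Prss57* had 7.18, 7.69, 6.15 and 6.02 CPM in URE LSKs and 279, 387, 159.8 and 366 CPM in URE GMPs, against 32.2, 32.3, 36.2 and 37.5 and 157, 198, 175 and 159.6 CPM in WT, and the difference of the changes was 3.12 (adjusted p = 5.91e-05). LSK and GMP libraries of the same genotype did not overlap for these 2 genes. *Prss57* shares 1157 exon bases with *Fstl3*, and *Prtn3* shares 159 with *Plppr3*. *Srgn*, the proteoglycan that packs granule proteins, rose by 1.85 (adjusted p = 0.00131) and by 0.66 in WT, again with a called difference (1.23, adjusted p = 0.0415). *Ctsc*, the protease that activates the granule serine proteases, was the tested member that did not pass (log2 fold change 0.24, adjusted p = 0.161). *Srgn* lost the call of its difference from WT in 13 of the 16 fits that each left out 1 library.

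**Figure D2:**
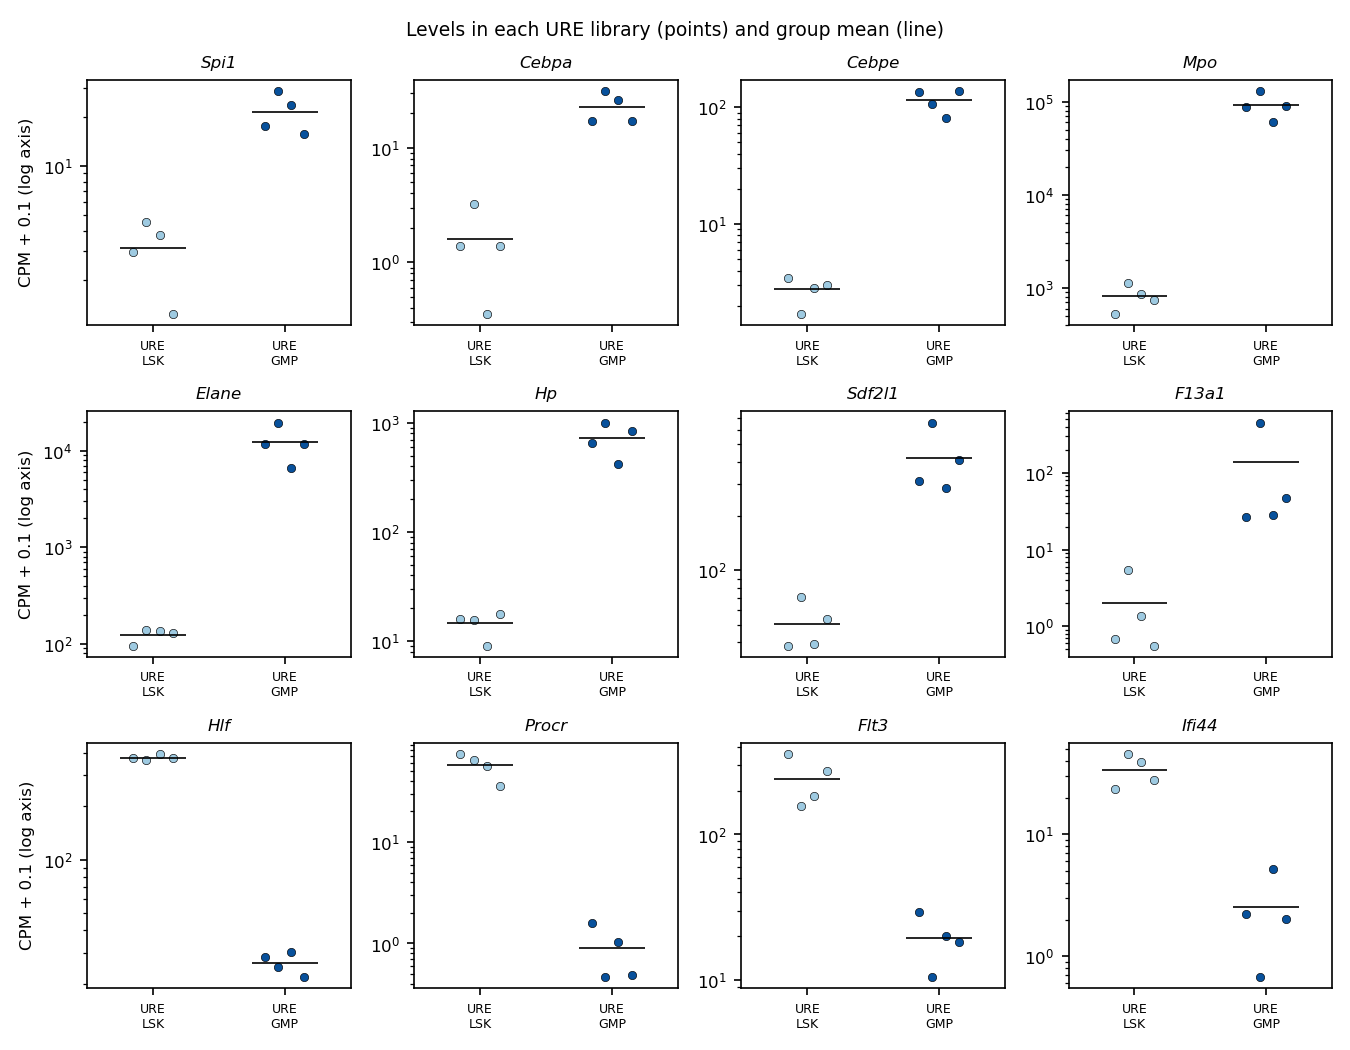
CPM per library on a log axis (0.1 CPM added) for 12 genes of the progenitor step, with 4 points for each of URE LSK and URE GMP and a line at the group mean. The 8 genes of the upper panels, from *Spi1* to *F13a1*, are higher in every URE GMP library than in every URE LSK library, and *Hlf*, *Procr*, *Flt3* and *Ifi44* are lower in every URE GMP library.

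Of 42 transcription factors listed, 36 were tested, 10 rose (27.8%) and 11 fell (30.6%), against 13.3% and 18.6% of all genes tested. Their median was −0.198, and in WT 9 rose and 12 fell. *Cebpa*, which is needed to form GMPs, had 1.29, 3.12, 0.253 and 1.3 CPM in URE LSKs and 16.9, 31, 25.8 and 16.9 CPM in URE GMPs (log2 fold change 4.07, SE 0.49, adjusted p = 0.000526). *Cebpe*, which drives the later granule programme, had 3.35, 1.59, 2.74 and 2.93 and 136, 106, 81.2 and 137 CPM (log2 fold change 5.41, adjusted p = 7.61e-06). *Gfi1*, a repressor required in neutrophil development, had 3.31, 3.85, 0.169 and 1.97 and 10.5, 26.3, 10 and 16 CPM (log2 fold change 2.98, adjusted p = 0.0035). For all 3, the GMP libraries lay above the LSK libraries without overlap, and no difference from the WT change was called, although that of *Gfi1* was 0.48 in WT (difference 2.23, SE 0.79, adjusted p = 0.113). *Id1*, an inhibitor of E proteins, rose by 3.99 (adjusted p = 0.0001) from 0.507 to 1.26 to 7.67 to 19.6 CPM and by 2.10 in WT, and here the difference was called (1.90, adjusted p = 0.0386). *Myb*, a factor of immature cells, rose by 0.96 (adjusted p = 0.00139). *Id1* lost the call of its difference from WT in 11 of the 16 fits that each left out 1 library.

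Several of the factors that fell are known from stem cells and early progenitors. *Maf*, which encodes a leucine zipper factor, had 63.2, 63.4, 45.1 and 41.8 CPM in URE LSKs and 4.92, 1.57, 5.48 and 2.98 CPM in URE GMPs, a log2 fold change of −3.95 (adjusted p = 0.000125), with a called difference from WT (−2.26, adjusted p = 0.015). Every URE LSK library was above every WT LSK library, which had 4.68, 8.06, 4.14 and 2.66 CPM. *Maf* shares 440 exon bases with a neighbouring gene. *Lmo2* and *Tal1*, partners in a complex that maintains stem cells, fell (log2 fold changes −1.68 and −1.19, adjusted p = 0.00124 and 0.00587), against −1.68 and −0.73 in WT. *Jun*, an AP-1 subunit, fell by 1.67 (adjusted p = 0.000934), against −2.10 in WT.

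Genes of later neutrophil granules and surface receptors were split. Of the 26 genes listed, 21 were tested, 11 rose and 1 fell, with a median of 2.04 (in WT 11 rose and 2 fell, median 0.706). *Hp* (haptoglobin) had 15.7, 15.5, 8.97 and 17.4 CPM in URE LSKs and 649, 1004, 418 and 838 CPM in URE GMPs, a log2 fold change of 5.59 (SE 0.17, adjusted p = 1.66e-06). *Lcn2* (lipocalin 2, an iron-sequestering granule protein) had 1.99, 2.45, 0.843 and 1.13 CPM in URE LSKs and 28.3, 43.9, 20.6 and 43 CPM in URE GMPs (log2 fold change 4.39, adjusted p = 3.52e-05), whereas WT GMPs had 1.65, 3.36, 2.05 and 2.59 CPM, and the difference of the changes was 3.30 (adjusted p = 0.00121). *Pglyrp1*, a bactericidal granule protein, and *Anxa1*, a regulator of neutrophil migration, rose by 3.20 and 1.70 (adjusted p = 2.91e-05 and 0.000342), each with a called difference from WT (1.56 and 1.03). Some known neutrophil proteins were not called in this fit: *Camp* (cathelicidin) had 27.8 to 91.4 CPM in URE LSKs and 38.1 to 354 CPM in URE GMPs (adjusted p = 0.0844), and *S100a9* had 5.69 to 29.3 and 5.74 to 76.7 CPM (adjusted p = 0.0911). Both were called in the 16-library fit (1.06 and 1.15), without the URE GMP replicate 1 (1.55 and 1.66) and without the URE LSK replicate 1 (1.58 and 1.68), and *S100a9* also with DESeq2 and the block (1.14). *Anxa1* lost the call of its difference from WT in 7 of the 16 fits that each left out 1 library.

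*Mmp8* (neutrophil collagenase) was the member whose change lay below that of WT. It had 0.741, 1.92, 0.0421 and 0 CPM in URE LSKs and 0.627, 2.09, 0.359 and 0.338 CPM in URE GMPs, which overlap, and 0.865, 0.302, 0.156 and 0.0403 CPM in WT LSKs and 6.93, 6.19, 9.68 and 4.82 CPM in WT GMPs, which do not. The difference of the changes was −4.23 (adjusted p = 0.0437). *Padi4*, which deiminates histones in neutrophils, fell by 1.28 (adjusted p = 0.00117) and had a log2 fold change of −2.44 in WT. *Mmp8* lost the call of its difference from WT in 11 of the 16 fits that each left out 1 library.

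Monocyte genes rose in part. Of the 26 genes listed, 23 were tested, 10 rose (43.5%) and none fell, with a median of 1.33, against 13.3% and 18.6% of all genes tested. In WT 17 of 26 rose and 1 fell, with a median of 1.24. Markers of the monocyte progenitor cluster that the study drew from its own single WT cells were counted too. Of 42 tested in URE mice, 15 rose (35.7%) and 5 fell (11.9%) with a median of 0.139, whereas 31 of 43 rose and 1 fell in WT with a median of 1.3. The URE change was below that of WT for 10 of these genes and above it for 1, against 2.6% and 3.97% of all genes. Without replicate 2 of the URE GMPs 10 fell, and without replicate 2 of the URE LSKs 9. *Irf8*, the factor that commits progenitors to monocytes and dendritic cells, had 4.37, 9.05, 3.67 and 4.39 CPM in URE LSKs and 23.2, 129, 16 and 27.1 CPM in URE GMPs. Its log2 fold change of 2.72 (SE 0.29, adjusted p = 0.000306) was near the WT value of 2.48, and WT had 29.5 to 60.7 CPM in LSKs and 169.9 to 399 CPM in GMPs. *F13a1* (coagulation factor XIII A chain, abundant in monocyte progenitors) had 0.585, 5.37, 1.26 and 0.46 and 26.5, 453, 28.4 and 47.5 CPM (log2 fold change 5.75, adjusted p = 3.26e-05). *Ccr2*, the chemokine receptor that brings monocytes out of the marrow, had 0.936, 2.19, 6.57 and 1.38 and 14.5, 59.7, 24.2 and 17.6 CPM (log2 fold change 3.51, adjusted p = 0.000771).

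The URE GMP replicate 2 was the highest for *Irf8*, *F13a1* and *Ccr2*, with more than 2 times the next level for each of the 3 genes. Without that library, 9 of the monocyte genes rose and 1 fell, and 1 also fell without the URE LSK replicate 2. *Ly6c2* (a Ly6C gene of monocytes and their progenitors) rose by 6.31 (adjusted p = 2.85e-05) from 2.89 to 11.5 to 311 to 1194 CPM, and *Cx3cr1*, the fractalkine receptor, by 5.75 (adjusted p = 0.000142) from 0 to 0.464 to 5.23 to 18.2 CPM. *Ly6c2* was also listed with the genes behind the sorting markers, and the part of the sort in its change was not tested. WT GMPs had 14 to 46.9 CPM of *Cx3cr1*, and the difference of the changes was 2.41 (adjusted p = 0.028), with a start near 0 in URE LSKs. *Csf1r*, the macrophage colony-stimulating factor receptor, was not called in URE mice (4.41, 2.62, 7.25 and 3.35 CPM in LSKs, 7.19, 26.3, 7.54 and 9.8 CPM in GMPs, log2 fold change 1.33, adjusted p = 0.0707). It was called at 1.40 with DESeq2 and the block (adjusted p = 0.0113), and in edgeR without the URE GMP replicate 3 (1.81) or the URE LSK replicate 3 (1.85). In WT it rose by 2.59, to 268, 96.1, 40 and 141 CPM in GMPs, and the difference of the changes was not called (adjusted p = 0.347). *Klf4*, which acts downstream of *Irf8* in monocytes, was too low to be tested in URE mice and had 0.0482 to 0.366 CPM in URE GMPs against 0.693 to 1.66 CPM in WT GMPs (difference of the changes −3.46, adjusted p = 0.0178). *Cx3cr1* lost the call of its difference from WT in 7 of the 16 fits that each left out 1 library and *Klf4* in 1.

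All 6 subunits of the phagocyte NADPH oxidase rose in URE mice, with a median log2 fold change of 1.46, and 5 rose in WT with a median of 0.803. *Ncf4* (p40phox, a cytosolic subunit) had 5.19, 11.2, 2.23 and 3.26 and 59.5, 109, 62.8 and 69.8 CPM in URE mice, a change of 3.93 (adjusted p = 5.26e-05) that exceeded that of WT by 2.95 (adjusted p = 0.00128). Every URE LSK library lay below every WT LSK library. *Cybb*, the catalytic membrane subunit, rose by 1.97 (adjusted p = 0.01) with overlapping groups, and the URE GMP replicate 2 had 75.3 CPM against at most 10.2 CPM in the other URE GMP libraries.

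Genes of basophils, mast cells and eosinophils rose with and without the element. Of the 17 genes listed, 16 were tested, 10 rose and 2 fell, with a median of 3.03, and in WT 13 rose and 1 fell, with a median of 4.22. The change differed from WT for a single member, *Il5ra*. *Cpa3* (a mast cell and basophil protease) had 62.4, 83, 146 and 65 CPM in URE LSKs and 1125, 649, 2072 and 1146 CPM in URE GMPs (log2 fold change 3.74, adjusted p = 3.03e-05), and *Mcpt8* (a basophil protease) had 27.2, 22.1, 9.02 and 11 and 439, 134, 187 and 266 CPM (log2 fold change 3.86, adjusted p = 9.98e-05). *Prg2* (eosinophil major basic protein) rose by 6.21 (adjusted p = 0.00387), with 1.01, 1.19, 0 and 22.2 CPM in URE LSKs, where replicate 4 was the highest. *Il5ra* lost the call of its difference from WT in 13 of the 16 fits that each left out 1 library.

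*Tpsb2* and *Cma1*, proteases of mature mast cells, went the other way. *Tpsb2* had 6.71, 2.06, 32.9 and 44.9 CPM in URE LSKs and 0 counts in all 4 URE GMP libraries, so it was at least 557-fold lower with the floor of 3 counts over the group. This bound uses the URE LSK mean of 21.64 CPM, which replicates 3 and 4 carried, and it would be lower without either of them. *Cma1* fell by 5.0 (adjusted p = 0.000661) from 0.928 to 45.2 CPM, and WT LSKs had 0 to 1.41 CPM (difference not called, adjusted p = 0.105). *Il5ra*, the interleukin 5 receptor of eosinophil precursors, was at 0 in all 4 URE GMP libraries and had 2.95, 8.14, 5.57 and 3.22 CPM in WT GMPs. It was too low in URE mice to be tested there, and its difference from WT was called (adjusted p = 0.0394) with a size that depends on the prior count. The summed level of this list was 178 to 335 CPM in URE LSKs and 1537 to 3091 CPM in URE GMPs, and 135 to 217 and 1863 to 3083 CPM in WT.

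The erythroid list also rose, with 10 of 17 tested genes higher, 4 lower and a median of 2.98 (WT: 11 higher, 2 lower, median 2.19). *Klf1*, the erythroid master factor, had 2.03, 3.71, 4.21 and 4.85 CPM in URE LSKs and 74.9, 15.7, 96.1 and 40.4 CPM in URE GMPs (log2 fold change 3.66, adjusted p = 0.000903). *Gata1* had 3.08, 4.08, 13.8 and 6.11 and 69.2, 18.3, 82 and 48 CPM (log2 fold change 2.98, adjusted p = 0.000494), and *Car1* (carbonic anhydrase 1) had 5.46, 7.03, 17.6 and 9.03 and 245, 33, 339 and 157 CPM (log2 fold change 4.01, adjusted p = 0.000469). The URE GMP replicate 2, which was high for monocyte genes, was the lowest of the 4 for all 3. Without that library, 10 erythroid genes rose and 3 fell, and 2 fell without the URE LSK replicate 3. *Car2* (carbonic anhydrase 2), abundant in LSKs, fell by 2.02 (adjusted p = 0.00516) from 2169.9 to 2607 to 168 to 1026 CPM. The summed level of the list, to which *Car2* contributed most, was 2236 to 2671 CPM in URE LSKs and 471 to 1858 CPM in URE GMPs. *Tfrc* (transferrin receptor) is shared with all dividing cells and rose by 2.70 (adjusted p = 0.000476). No erythroid gene had a called difference from WT.

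Of 12 megakaryocyte genes, 8 were tested, 2 rose (25%) and 3 fell (37.5%), against 13.3% and 18.6% of all genes tested. Only 1 rose when any of the 6 URE libraries other than the replicates 3 was left out. *Pf4* (platelet factor 4) had 7.72, 2.78, 76.6 and 2.55 CPM in URE LSKs and 29.7, 33.9, 118 and 33.8 CPM in URE GMPs (log2 fold change 2.38, adjusted p = 0.00719), and replicate 3 was the highest in both. *Rab27b*, a small GTPase of secretory granules, fell by 1.77 (adjusted p = 0.00131) in URE mice, with a log2 fold change of 0.25 in WT (difference −1.90, adjusted p = 0.0498). *Rab27b* lost the call of its difference from WT in 14 of the 16 fits that each left out 1 library.

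Stem cell genes fell almost without exception. Of 38 genes listed, 37 were tested, 34 fell and none rose, with a median of −2.64, and in WT 31 of 38 fell, with a median of −2.18. *Hlf*, a factor that marks stem cells, had 371, 364, 392 and 373 CPM in URE LSKs and 28.1, 24.7, 30 and 21.7 CPM in URE GMPs (log2 fold change −3.89, SE 0.14, adjusted p = 4.12e-06), and the WT change was −3.84. *Mecom*, needed to keep stem cells, had 159, 91.7, 137 and 115 and 15.9, 12.7, 8.51 and 12 CPM (log2 fold change −3.40, adjusted p = 2.83e-05; WT −3.84). Both fell with and without the element, with differences of −0.03 and 0.36 (SEs 0.31 and 0.38) that were not called.

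In 4 stem cell genes the change was below that in WT. *Procr* (endothelial protein C receptor, a stem cell surface marker; chromosome 2, 155751117 to 155755471) had 73.4, 64.4, 56 and 35.5 CPM in URE LSKs and 1.5, 0.366, 0.923 and 0.394 CPM in URE GMPs, against 51.9, 63.9, 53.2 and 36.8 and 2.82, 3.57, 2.15 and 2.85 CPM in WT. Its log2 fold change was −6.27 (adjusted p = 1.12e-05) and the difference from WT −2.0 (adjusted p = 0.0108). *Tek* (the Tie2 receptor) had 5.04 to 9.52 CPM in URE LSKs and 0.225 to 0.769 CPM in URE GMPs, against 24.6 to 56 and 5.28 to 27.3 CPM in WT, a difference of −2.52 (adjusted p = 0.0231). *Hoxa9*, a homeobox factor of immature cells, and *Cd27*, a receptor of the tumor necrosis factor family, fell with log2 fold changes of −2.44 and −2.21, and the differences from WT were −1.18 and −1.15 (adjusted p = 0.0266 and 0.0276). *Prdm16*, *Hoxa7* and *Hoxb4* were the tested members that were not called, and *Hoxb4* was called without replicate 3 of the URE GMPs (−1.59) or the URE LSKs (−1.55). *Tek* lost the call of its difference from WT in 3 of the 16 fits that each left out 1 library, *Hoxa9* in 5 and *Cd27* in 9.

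Lymphoid genes fell in part. Of 27 listed, 20 were tested, 3 rose (15%) and 10 fell (50%), with a median of −0.69 (WT: 4 rose and 16 fell of 24, median −1.23). Of all genes tested, 13.3% rose and 18.6% fell, so the share that rose was near that of all genes. The change of 7 lymphoid genes was above and of 2 below that in WT. *Flt3*, the receptor of lymphoid-primed progenitors, had 356, 157, 184 and 271 CPM in URE LSKs and 29.1, 10.4, 19.9 and 18.2 CPM in URE GMPs, against 1209, 672, 359 and 773 and 232, 90.1, 78.5 and 131 CPM in WT. It fell by 3.70 (adjusted p = 8.86e-06) and had a log2 fold change of −2.52 in WT, a difference of −1.08 (adjusted p = 0.0416). *Dntt*, which adds bases to rearranging antigen receptor genes, fell from 60.8 to 214 to 6.32 to 13.6 CPM (−3.34, adjusted p = 0.000674), and *Ltb* (lymphotoxin beta) fell from 82.5 to 186 to 1.2 to 10.2 CPM (−5.38, adjusted p = 9.05e-05). Both also fell in WT (−3.85 and −6.14). *Flt3* lost the call of its difference from WT in 13 of the 16 fits that each left out 1 library.

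The genes of the surrogate light chain, a part of the pre-B cell receptor, moved against this trend. *Igll1* (lambda 5) was at 0 counts in all 4 URE LSK libraries and had 0.916, 2.4, 1.03 and 1.69 CPM in URE GMPs, at least 52.1-fold higher with the floor of 3 counts over the group. *Vpreb1* had 0.234, 0.729, 0.59 and 0.251 CPM in URE LSKs and 2.75, 2.98, 2.61 and 2.59 CPM in URE GMPs, a rise of 2.66 (adjusted p = 0.00323), against 0.322 to 1.34 and 0.866 to 1.81 CPM in WT, and the difference of the changes was 2.07 (adjusted p = 0.0389). *Rag2*, which cuts antigen receptor genes, was low in both URE cell types (0.544 to 1.46 and 1.01 to 3.13 CPM), while WT fell from 9.91 to 26.8 to 3.38 to 4.78 CPM (difference 2.70, adjusted p = 0.0014). *Ighm*, the heavy chain of that receptor, fell by 2.64 (adjusted p = 0.00187) from 392, 1256, 177 and 973 CPM to 97.2, 164, 68.2 and 54.9 CPM, and its highest URE LSK libraries, replicates 2 and 4, were also the highest for *Igkc* and *Jchain*. *Igll1* lost the call of its difference from WT in 12 of the 16 fits that each left out 1 library and *Vpreb1* in 10.

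Among 17 T and NK cell genes, 4 were too low to be tested in either genotype, including *Cd3d*, *Cd3e* and *Cd3g*, which define T cells. Of the 11 tested, 3 rose (27.3%) and 5 fell (45.5%), against 13.3% and 18.6% of all genes tested. *Trat1*, an adaptor of the T cell receptor, had 17.3, 25.3, 41.6 and 22.6 CPM in URE LSKs and 166, 77.9, 207 and 146 CPM in URE GMPs, and at most 2.11 CPM in any WT library. It rose by 2.43 (adjusted p = 0.000243) and the difference from WT was 3.37 (adjusted p = 0.0223). *Tcf7*, a factor of T cell and stem cell development, had 0.39, 0.232, 0.758 and 1.25 CPM in URE LSKs and 6.7, 2.4, 4.66 and 3.43 CPM in URE GMPs (log2 fold change 2.78, adjusted p = 0.00387), against 0.346 to 1.22 CPM in WT GMPs (difference 3.82, adjusted p = 0.0247). *Gata3*, a factor, and *Lck*, a kinase of T cells, fell (log2 fold changes −1.74 and −1.57, adjusted p = 0.000802 and 0.00314), less than in WT by 1.51 and 1.56. The summed level of the list was 568 to 765 CPM in URE LSKs and 1812 to 2367 CPM in URE GMPs, above the WT sums of 289 to 562 and 602 to 1017 CPM. *Nkg7*, a granule membrane protein, carried most of it in URE GMPs, with 1349 to 2227 CPM there and 212 to 354 CPM in URE LSKs (2.61, adjusted p = 1.72e-05). The Cd3 genes named above were too low to be tested. *Trat1* lost the call of its difference from WT in 1 of the 16 fits that each left out 1 library, *Tcf7* in 5, *Gata3* in 13 and *Lck* in 10.

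Genes of MHC class II antigen presentation fell. Of 11 listed, 10 were tested and 9 fell, with a median of −2.03 (WT: 8 fell, median −1.01). *Cd74*, the invariant chain, had 45.5, 95.3, 58.2 and 38.2 CPM in URE LSKs and 4.15, 2.66, 12.7 and 4.28 CPM in URE GMPs, against 235, 269, 328 and 121 and 116, 163, 119 and 115 CPM in WT. It fell by 3.48 (adjusted p = 0.000585) in URE mice against −0.83 in WT, a difference of −2.55 (adjusted p = 0.00816). *H2-Aa*, the class II alpha chain, fell from 7.86 to 29.6 to 1.07 to 2.98 CPM (−3.16, adjusted p = 5.35e-05), and *H2-DMa*, which helps load peptides, from 149 to 269 to 60.3 to 115 CPM (−1.40, adjusted p = 0.000147). Both fell further than in WT, with differences of −1.94 and −1.13 (adjusted p = 0.00157 and 0.0031). *Ciita*, the class II transactivator, fell by 3.14 (adjusted p = 0.000902). Of 12 dendritic cell genes, 6 were tested and 2 fell (33.3%, against 18.6% of all genes tested). The summed level of that list was 203 to 354 CPM in URE LSKs and 150 to 196 CPM in URE GMPs.

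MHC class I genes showed the reverse relation to WT. Of 17 genes, 1 rose and 1 fell in URE mice (5.88% each, median −0.0449), below the 13.3% and 18.6% of all genes tested. In WT 8 fell (median −0.55), where 25.1% of all genes tested fell. The URE change was above that of WT for 6, against 3.97% of all genes. The gene that fell was not called without replicate 1 or 3 of the URE GMPs, without replicate 1, 2 or 3 of the URE LSKs, with DESeq2 or its size factors, or without the genes of at least 1% of counts, and neither gene was called without the replicate block. *H2-Q7* (a non-classical class I gene; chromosome 17, 35439155 to 35443773) had 63.3, 131, 87.3 and 71.3 CPM in URE LSKs and 105, 228, 145 and 179 CPM in URE GMPs, and 71, 118, 103 and 109.7 and 26, 46.5, 35.8 and 29.1 CPM in WT. It rose by 0.86 (adjusted p = 0.00201) in URE mice and fell by 1.57 in WT, a difference of 2.46 (adjusted p = 1.5e-05). Its neighbour *H2-Q6* was at 54.3 to 126 and 77.8 to 132 CPM in URE mice and fell by 1.83 in WT (difference 2.04, adjusted p = 5.46e-05). *H2-D1*, a classical class I gene, differed by 0.84 (adjusted p = 0.00519). Class I genes are close copies of each other, and estimated counts can divide reads among them wrongly.

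Interferon-stimulated genes fell in both genotypes. Of 34 listed, 32 were tested in URE mice, 20 fell and none rose, with a median of −1.02, and in WT 30 of 34 fell, with a median of −1.65. *Ifi44* fell from 23.2 to 45.4 to 0.575 to 5.13 CPM (−4.00, adjusted p = 0.000521; WT −3.40), and *Irf7*, the factor that amplifies the response, fell by 1.69 (adjusted p = 0.00166; WT −2.85). *Ifit3*, an RNA-binding antiviral gene, was not called in URE mice (1.64 to 4.04 and 0.783 to 3.13 CPM), and WT fell from 24 to 40.6 to 2.33 to 5.82 CPM, a difference of 2.37 (adjusted p = 0.0249). Without replicate 3 of the URE GMPs (−1.58) or the URE LSKs (−1.54), *Ifit3* fell in URE mice too. *Ifit3* lost the call of its difference from WT in 7 of the 16 fits that each left out 1 library.

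Receptors for cytokines changed in both directions, with 6 of 31 tested genes higher (19.4%) and 13 lower (41.9%, against 13.3% and 18.6% of all genes) (WT: 8 higher and 14 lower of 34). *Csf3r*, the granulocyte colony-stimulating factor receptor, had 170, 122, 74.4 and 184 CPM in URE LSKs and 343, 343, 119.8 and 434 CPM in URE GMPs, higher in the GMP library of every replicate number although the groups overlap. It rose by 1.07 (adjusted p = 0.00113), and the WT change was 0.01 (difference 1.08, adjusted p = 0.0486). *Il3ra* and *Csf2rb*, the alpha and shared beta chains of interleukin 3 receptors, rose by 1.73 and 1.71 (adjusted p = 0.000336 and 0.000579), and *Ifngr1*, an interferon gamma receptor chain, rose by 2.10 (adjusted p = 3.73e-05). For *Il3ra* and *Ifngr1* the change was above that of WT, by 1.01 and 0.82 (adjusted p = 0.0243 and 0.00596). *Il6st* (gp130, the signalling chain of interleukin 6 receptors) had 86, 23.6, 29 and 65.4 CPM in URE LSKs and 9.12, 13.6, 4.56 and 8.73 CPM in URE GMPs. It fell by 2.46 (adjusted p = 0.0019), and the WT change was 0.13 (difference −2.51, adjusted p = 0.00554). *Csf3r* lost the call of its difference from WT in 11 of the 16 fits that each left out 1 library and *Il3ra* in 7.

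For adhesion genes, 3 of 13 tested rose (23.1%) and 3 fell (23.1%), against 13.3% and 18.6% of all genes tested, and 1 rose without the URE GMP replicate 4. *Itgb2*, the beta 2 integrin of leukocytes, rose by 1.17 (adjusted p = 0.0111) from 30.2 to 69 to 75.2 to 171 CPM, against −0.14 in WT (difference 1.26, adjusted p = 0.0436), and it was 0.90 and not called without the URE GMP replicate 4. *Itga6*, the laminin receptor chain, fell by 1.07 (adjusted p = 0.00255; difference −1.04, adjusted p = 0.0281). Of 8 tested genes of Toll-like receptor sensing, 1 rose (12.5%) and 2 fell (25%), near the shares of all genes, and 2 rose without the URE LSK replicate 3 and none without the replicate block. *Cd14*, the lipopolysaccharide co-receptor, rose by 2.92 (adjusted p = 0.00707), while *Tlr2* fell by 2.23 (adjusted p = 0.000221; difference −1.86, adjusted p = 0.00465) and *Tlr7* fell by 1.87 (adjusted p = 0.000935). *Itgb2* lost the call of its difference from WT in 14 of the 16 fits that each left out 1 library and *Itga6* in 7.

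**Figure D3:**
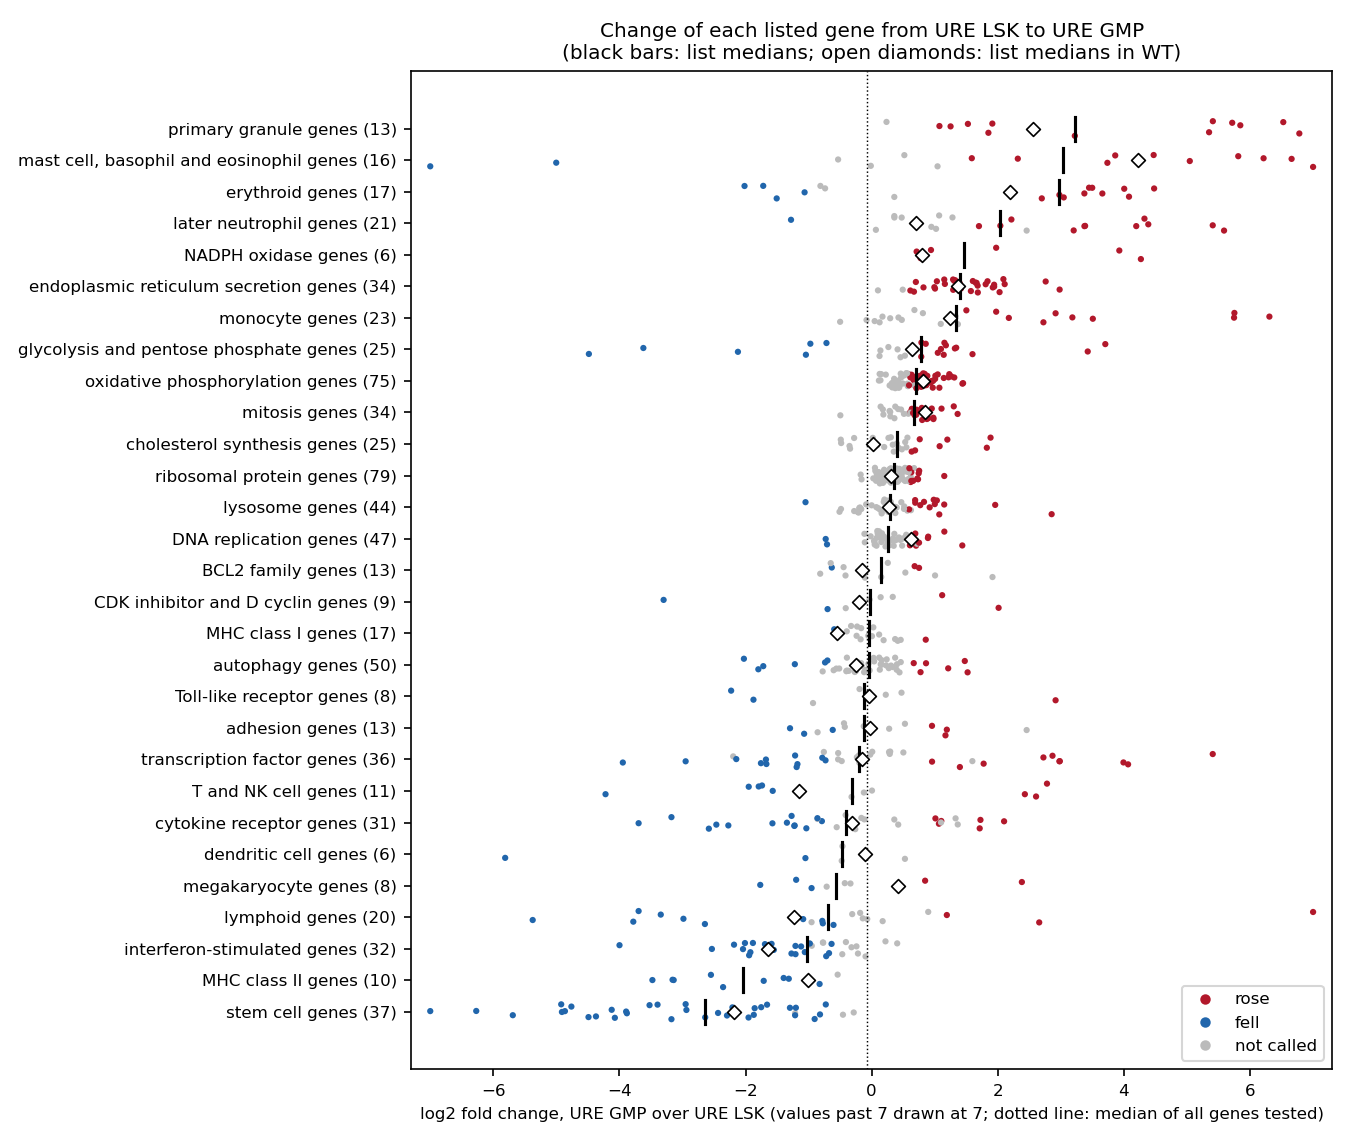
Log2 fold change of URE GMPs over URE LSKs for each tested member of the gene lists, 1 point per gene, with a black bar at the list's median in URE mice, an open diamond at its median in WT and values beyond 7 drawn at 7. Primary granule, erythroid, and basophil, mast and eosinophil genes lie mostly above 0, and stem cell, MHC class II and interferon-stimulated genes mostly below.

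Genes of protein entry into the endoplasmic reticulum and folding there rose nearly as a whole. Of 34 genes, 32 rose and none fell, with a median of 1.41, and in WT 30 rose and 1 fell, with a median of 1.36. *Calr* (calreticulin) had 341, 451, 342 and 266 CPM in URE LSKs and 2013, 3086, 1465 and 3679.5 CPM in URE GMPs (log2 fold change 2.76, adjusted p = 0.000171). *Sdf2l1*, a chaperone cofactor, had 38.1, 70.8, 39.1 and 53.4 and 315, 661, 285 and 412 CPM (log2 fold change 2.98, adjusted p = 7.61e-06; WT 2.94). *Xbp1*, the factor of the secretory stress response, rose by 1.84 (adjusted p = 5.49e-05) and by 0.58 in WT, a called difference of 1.29 (adjusted p = 0.0396). *Xbp1* lost the call of its difference from WT in 12 of the 16 fits that each left out 1 library.

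Genes of the respiratory chain rose as well. Of 75 oxidative phosphorylation genes listed, 47 rose and none fell, with a median of 0.709, and in WT 59 rose with a median of 0.82. *Cycs* (cytochrome c) had 93.7, 123, 96.3 and 107 CPM in URE LSKs and 292, 383, 266 and 250.2 CPM in URE GMPs (log2 fold change 1.45, adjusted p = 0.00013; WT 2.04). Of 79 ribosomal protein genes, 11 rose and none fell (median 0.354). The share that rose, 13.9%, was near the 13.3% of all genes tested, and the count ran from 1 (without replicate 4 of either cell type) to 20 (without the URE LSK replicate 3) as each URE library was left out. Of 44 lysosome genes, 13 rose (29.5%) and 1 fell (2.27%), with a median of 0.284, against 13.3% and 18.6% of all genes tested. Among those that rose was *Gla*, a lysosomal galactosidase, from 5.6 to 10.5 to 46.6 to 89 CPM (2.85, adjusted p = 5.27e-05). Of the lysosome genes, 2 fell without the URE GMP replicate 3 and none without the URE GMP replicate 4 or the URE LSK replicate 2 or 4. *Ctsz*, a cathepsin, rose by 0.92 (adjusted p = 0.000935), less than in WT (difference −0.78, adjusted p = 0.00914).

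Of 25 genes of glycolysis and the pentose phosphate pathway, 13 rose (52%) and 6 fell (24%), with a median of 0.786. Of all genes tested, 13.3% rose and 18.6% fell, so the share that fell was near that of all genes. The 5 listed enzymes of the pentose phosphate pathway (*G6pdx*, *Pgls*, *Pgd*, *Tkt* and *Taldo1*) all rose, by 1.18, 1.14, 1.60, 1.05 and 1.34 on the log2 scale. The 2 genes with the smallest p-values for a difference from WT were in this list. *Ldhb* (the lactate dehydrogenase chain that favours pyruvate formation; chromosome 6, 142490249 to 142507957) had 55, 87, 101 and 70.3 CPM in URE LSKs and 1.88, 3.92, 4.36 and 4.56 CPM in URE GMPs, against 166, 207, 243 and 228 and 72.6, 102, 117 and 118 CPM in WT. It fell by 4.48 (SE 0.19, adjusted p = 7.61e-06) in URE mice against −1.07 in WT, and the difference was −3.37 (SE 0.19, adjusted p = 1.62e-06).

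*Fbp1* (fructose bisphosphatase, an enzyme of gluconeogenesis; chromosome 13, 62864753 to 62888282) moved in opposite directions. It had 1.56, 1.72, 2.65 and 2.13 CPM in URE LSKs and 30.6, 24.7, 24.3 and 27.7 CPM in URE GMPs, and 30.2, 38.8, 44.8 and 23.7 CPM in WT LSKs and 14.6, 24, 27 and 15.8 CPM in WT GMPs. It rose by 3.71 (adjusted p = 4.3e-05) in URE mice and fell by 0.78 (adjusted p = 0.000717) in WT, a difference of 4.53 (adjusted p = 8.85e-06). URE GMPs thus reached the WT range, and the gap lay in LSKs. *Hk3*, a hexokinase of myeloid cells, rose by 3.43 (adjusted p = 3.05e-05), more than in WT by 1.70 (adjusted p = 0.00324). *Hk2*, another hexokinase, was not called in URE mice (39.5 to 60.7 and 52.1 to 83.3 CPM) and rose by 1.44 in WT (difference −1.13, adjusted p = 0.0259). *Hk2* lost the call of its difference from WT in 7 of the 16 fits that each left out 1 library.

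Of 47 DNA replication genes, 9 rose (19.1%) and 2 fell (4.26%) in URE mice (median 0.252), against 13.3% and 18.6% of all genes tested. In WT 27 rose and none fell (median 0.626), against 15.8% and 25.1% of all genes tested there, and the URE change was below that of WT for 6. Only 1 fell when the URE GMP replicate 3 or 4 or the URE LSK replicate 2, 3 or 4 was left out. *Rrm2*, the regulated subunit of ribonucleotide reductase, rose by 1.44 (adjusted p = 0.000855) from 291, 331, 110 and 317 to 862, 866, 459 and 592 CPM and by 1.83 in WT. *Chaf1b*, a histone chaperone of replication, had 253, 191, 185 and 241 CPM in URE LSKs and 164, 112, 139.5 and 124 CPM in URE GMPs and fell by 0.73 (adjusted p = 0.00373), and the difference from WT was −0.82 (adjusted p = 0.0146). Of 34 mitosis genes, 20 rose and none fell (median 0.664; WT 28 rose, median 0.853), and none differed from WT.

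Of 9 tested CDK inhibitor and D cyclin genes, 2 rose and 2 fell (22.2% each, near the 13.3% and 18.6% of all genes), with a median of −0.0337, and the change differed from WT for 1 in each direction. *Ccnd1* (cyclin D1) had 40.6, 26.3, 28.1 and 44.7 CPM in URE LSKs and 3.67, 3.24, 3.69 and 3.66 CPM in URE GMPs, against 59.4, 37.1, 24 and 43.7 and 41.9, 30.7, 10.9 and 30.8 CPM in WT. It fell by 3.30 (adjusted p = 3.52e-05), with a difference from WT of −2.70 (adjusted p = 0.000971), and it shares 1100 exon bases with a neighbouring gene. *Cdk6* rose by 1.12 (adjusted p = 0.00139) and by 1.48 in WT. *Cdkn1a* (the inhibitor p21) rose by 2.01 (adjusted p = 0.000124) from 5.31 to 19.9 to 22.2 to 62.8 CPM, above WT by 1.05 (adjusted p = 0.00953). *Bcl2*, the survival gene, had 137, 52.4, 75.8 and 118 CPM in URE LSKs and 94, 38.2, 57.5 and 60.6 CPM in URE GMPs, lower in the GMP library of every replicate number. It fell by 0.63 (adjusted p = 0.00942) in URE mice and rose by 0.94 (adjusted p = 0.00171) in WT, a difference of −1.52 (adjusted p = 0.00301). The URE change was −0.49 and not called without the URE GMP replicate 4, −0.61 without the URE LSK replicate 1 and −0.47 without the URE LSK replicate 4. With DESeq2 and the block it was −0.56, and with DESeq2 size factors in edgeR −0.57, both below a fold change of 1.5.

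Of 25 cholesterol synthesis genes, 7 rose (28%, against 13.3% of all genes tested) and none fell (median 0.4), against 3 and 4 in WT. *Mvd*, which makes isopentenyl diphosphate, rose by 1.89 (adjusted p = 0.00648) from 0.674 to 4.64 to 6.2 to 18.5 CPM (difference from WT 1.73, adjusted p = 0.0242). *Srebf2*, the factor that controls the pathway, had 161, 24, 47.6 and 138 CPM in URE LSKs and 104, 27.4, 33.6 and 116 CPM in URE GMPs, not called, while WT fell by 1.80 (difference 1.46, adjusted p = 0.0213). Of 50 autophagy genes, 6 rose and 6 fell (12% each, median −0.0495), against 2 and 15 in WT, and the shares over all genes tested were 13.3% and 18.6%. *Atg12*, a ubiquitin-like conjugation protein, rose by 1.52 (adjusted p = 0.000903) from 56.2 to 93.8 to 153 to 267 CPM, above WT by 1.19 (adjusted p = 0.0144), and *Gabarap*, which coats autophagosomes, by 0.86 (adjusted p = 0.00208), above WT by 0.85 (adjusted p = 0.0128). *Foxo3*, a factor that induces such genes, fell by 1.80 (adjusted p = 0.00115) against −0.97 in WT. *Mvd* lost the call of its difference from WT in 6 of the 16 fits that each left out 1 library and *Srebf2* in 3.

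Gene sets that the study drew from single cells of the same 2 genotypes were counted as well. The cluster markers come from WT cells. Markers of the WT cluster of stem cells and early progenitors fell in URE mice for 37 of 44 genes and rose for none (median −2.12), and fell in WT for 45 of 45 (median −1.77). Markers of the neutrophil progenitor cluster rose for 126 of 150 genes and fell for none (median 1.91), against 112 of 152 in WT (median 1.1), and the URE change was above that of WT for 40 and below it for 4. Of the basophil progenitor markers, 41 of 101 rose (40.6%) and 20 fell (19.8%), the latter near the 18.6% of all genes tested (WT 37 and 20 of 105). Megakaryocyte progenitor markers rose for 2 (5.13%) and fell for 18 (46.2%) of 39 genes (WT 6 and 13 of 40). Erythroid progenitor markers rose for 49 (24.9%) and fell for 26 (13.2%) of 197 (WT 72 and 24 of 200), against 13.3% and 18.6% of all genes. Of the neutrophil markers, 2 fell without replicate 2 of either URE cell type. Of the basophil markers, 13 fell without replicate 1 of either, and 4 megakaryocyte markers rose without replicate 3 of either.

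The study's 4 signatures group genes by their level in URE and WT cells. They were chosen on these mouse lines with the genotype in view, so their directions are not independent evidence. Signatures 1 and 2 hold genes lower in URE cells. Of all genes tested, 13.3% rose and 18.6% fell in URE mice, and 15.8% and 25.1% in WT. Of signature 1, 7 of 265 genes rose (2.64%) and 148 fell (55.8%) (WT 5 and 140 of 269). Of signature 2, 156 of 546 rose (28.6%) and 43 fell (7.88%) (WT 267 and 39 of 564). Signatures 3 and 4 hold genes higher in URE cells. Of signature 3, 6 of 345 rose (1.74%) and 205 fell (59.4%) (WT 9 and 237 of 341). Signature 4 rose for 348 (49.2%) and fell for 38 (5.37%) of 707 genes, against 184 and 133 of 683 in WT. The URE change was above that of WT for 213 of its genes and below it for 9, against 3.97% and 2.6% of all genes. Of signature 2, 25 genes fell without URE GMP replicate 1, 24 without URE LSK replicate 1 and 27 without URE LSK replicate 4. Of signature 3, 3 genes rose without replicate 1 or replicate 4 of either URE cell type.

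The step was then set against that in WT, where 2335 genes rose (15.8% of 14767 tested) and 3706 fell (25.1%). Among the 13880 genes tested in both genotypes, 1160 rose in both, which is 64.2% of the 1808 that rose in URE mice and 51.8% of the 2240 that rose in WT. Likewise 1896 fell in both, 74.4% of the 2550 in URE mice and 56.4% of the 3360 in WT. Most of the genes called in WT had the same sign in URE mice, 2088 (93.2%) of those that rose and 3083 (91.8%) of those that fell. The median log2 fold change of the genes that rose in WT was 0.906 there and 0.673 in URE mice, and of those that fell it was −1.29 and −1.01. These genes were picked by their WT change, so a larger median in WT does not show a weaker step in URE mice. Genes called in URE mice alone, without a called difference, had the reverse order. Their medians were 0.805 in URE mice and 0.371 in WT for rises, and −0.881 and −0.365 for falls. The URE and the WT comparison share no library.

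An interaction term in the 16-library fit tested whether the change itself differed, for 15935 genes. The URE change was above that of WT for 632 genes (3.97%) and below it for 415 (2.6%), at an adjusted p below 0.05. Sex, read from *Xist* and Y-linked transcripts, is not balanced: 1 of 4 URE libraries and 3 of 4 WT libraries of each cell type are male, and libraries of the same genotype and number match. The part of sex in the genotype differences was not tested. Of the 79 genes named here with a called difference, 51 kept it whichever of the 16 libraries was left out. The count over all genes was 194 without the replicate block and 2015 with DESeq2 and the block. WT and URE mice with the same number are different animals, and with the block nested in genotype the count was 1190, and *Id1*, *Mmp8*, *Srgn* and *Vpreb1* lost their call (adjusted p = 0.0549, 0.0508, 0.0661 and 0.0692). Of the genes with such a difference that were tested in both genotypes, 156 rose in WT alone and 176 fell in WT alone. In URE mice alone, 178 rose and 112 fell. Called in both in the same direction were 129 that rose and 98 that fell, and called in opposite directions were 33 that rose and 20 that fell in URE mice. The remaining 92 genes tested in both were called in neither.

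The levels behind these classes were read from the 16-library fit, in which URE LSKs were above WT LSKs for 813 genes (5.1%) and below for 1044 (6.55%), and URE GMPs were above WT GMPs for 1596 genes (10%) and below for 1133 (7.11%). The interaction is built from these same levels, so the counts only describe where the gap lay. Of the 178 genes that rose in URE mice alone, 113 ended above WT in GMPs and 69 started below WT in LSKs. Of the 112 that fell in URE mice alone, 70 ended below WT in GMPs and 27 started above WT in LSKs. Of the 176 that fell in WT alone, 103 stayed above WT in URE GMPs and 52 started below WT in URE LSKs. Of the 156 that rose in WT alone, 58 stayed below WT in URE GMPs and 13 started above WT in URE LSKs. The count was larger in GMPs than in LSKs for each of these 4 classes.

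**Figure D4:**
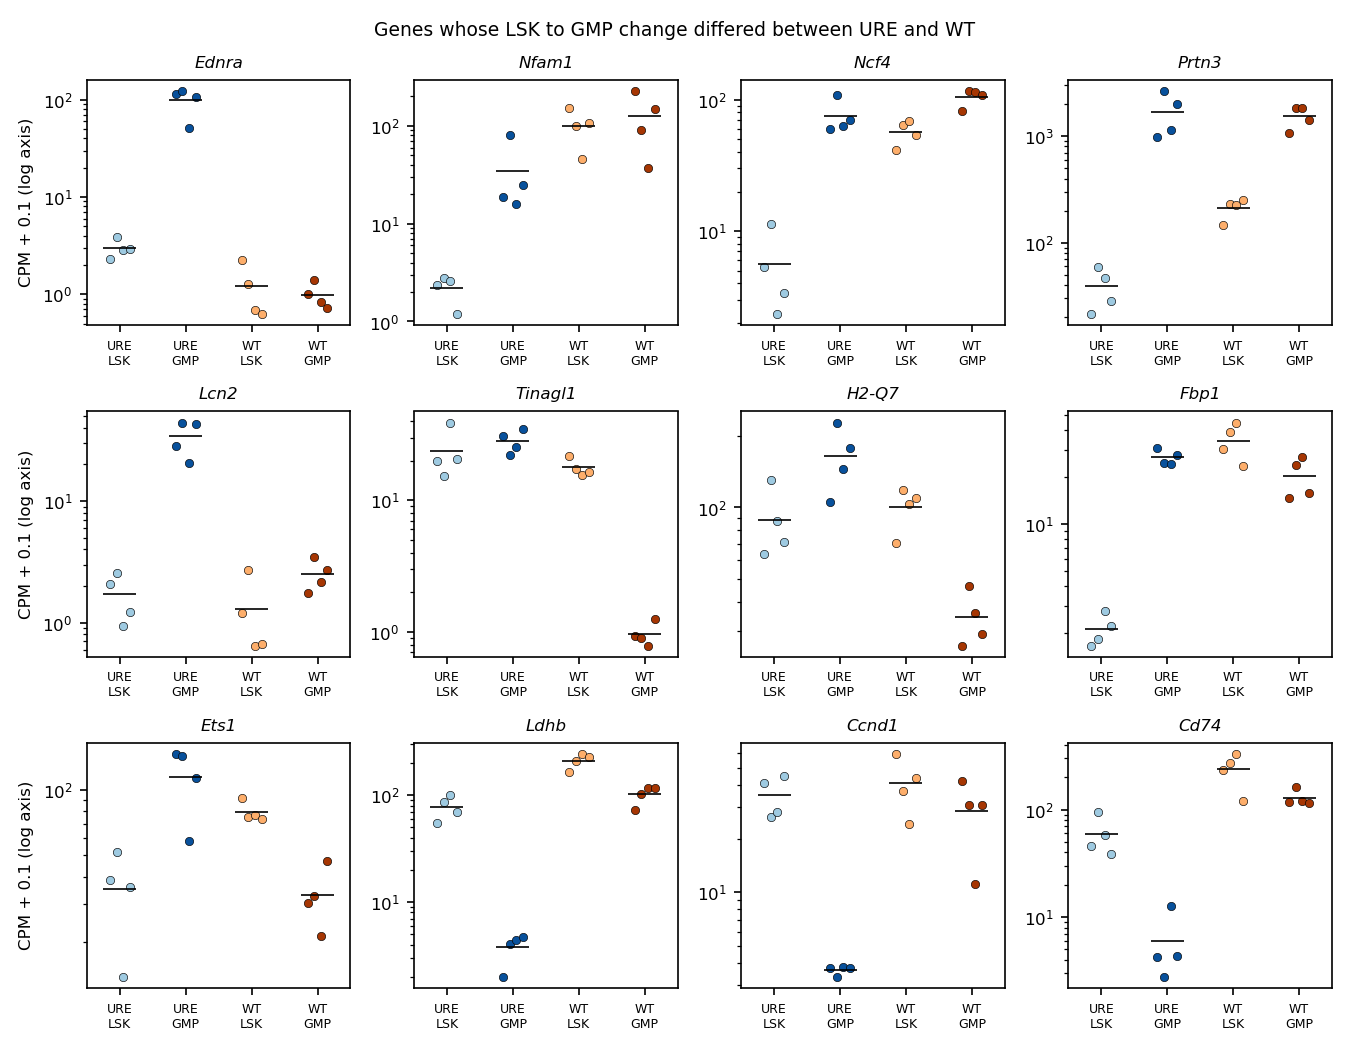
CPM per library on a log axis (0.1 CPM added) for genes whose change from LSK to GMP differed between the genotypes, with 4 points for each of URE LSK, URE GMP, WT LSK and WT GMP and a line at the mean. *Ednra* rises in URE mice alone, *Tinagl1* falls in WT alone, and *Fbp1* and *Ets1* move in opposite directions.

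Genes that rose in URE mice alone included *Ednra*, *Nfam1* and *Dock9*. *Ednra*, the endothelin A receptor (chromosome 8, 77663031 to 77724464), had 2.22, 3.75, 2.74 and 2.8 CPM in URE LSKs and 115, 122, 50.5 and 107 CPM in URE GMPs, and at most 2.15 CPM in any WT library (log2 fold change 5.0, adjusted p = 1.42e-05; difference 5.31, adjusted p = 5.91e-05). The LSKs of either genotype were low, and the URE GMPs stood far above every other library. *Nfam1*, an activating receptor with an immunoreceptor tyrosine motif, was different: it had 2.26, 2.65, 2.49 and 1.09 CPM in URE LSKs and 18.6, 79.9, 15.7 and 25 CPM in URE GMPs, of which all but replicate 2 were below every WT library (151, 98.7, 45.8 and 108 and 227, 91.8, 36.9 and 150.2 CPM), with a difference of 3.58 (adjusted p = 0.0093). *Dock9*, a guanine nucleotide exchange factor, rose from 6.75 to 17.9 to 45.6 to 161 CPM (difference 2.83, adjusted p = 0.0118).

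Those that fell in URE mice alone included *P2rx7*, an ATP-gated channel, and *Sulf2*, which trims sulfate from heparan chains. *P2rx7* had 9.83, 11.4, 30.5 and 19.1 CPM in URE LSKs and 1.74, 2.19, 2.87 and 0.507 CPM in URE GMPs, against 11.5 to 14.7 and 8.14 to 15.4 CPM in WT (difference −2.94, adjusted p = 0.00461). *Sulf2* had 118, 63.8, 58.6 and 64.6 and 15.7, 9.98, 11.4 and 10.7 CPM in URE mice, and WT libraries stayed between 2.33 and 4.57 CPM (difference −2.45, adjusted p = 0.00031). Every URE library of either cell type was above every WT library for *Sulf2*, by more in LSKs than in GMPs.

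Among genes that fell in WT alone, *Tinagl1*, a matrix protein gene, had 21.5, 17.4, 15.6 and 16.4 CPM in WT LSKs and 0.823, 0.789, 0.684 and 1.14 CPM in WT GMPs, while URE mice had 19.9, 15.1, 38.9 and 20.6 CPM in LSKs and 30.6, 22, 25.4 and 34.6 CPM in GMPs. The WT change was −4.38 and the difference 4.65 (adjusted p = 3.33e-05). In URE mice *Tinagl1* was called as higher without replicate 3 of the GMPs (0.60) or the LSKs (0.64). *Sytl1*, a vesicle transport gene, fell by 2.66 in WT and had 32.5 to 62.1 and 27.9 to 92.8 CPM in URE mice (difference 2.83, adjusted p = 0.000537). *Igf2r*, the mannose 6-phosphate receptor that sorts lysosomal enzymes, fell in WT from 13.1 to 52.5 to 0.88 to 3.16 CPM and had 5.93 to 9.18 and 2.56 to 6.58 CPM in URE mice (difference 3.11, adjusted p = 0.00509).

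Genes that rose in WT alone showed a mirror pattern. *Nrp1* (neuropilin 1) rose from 2.63, 2.62, 1.84 and 1.13 to 30.3, 19.9, 17.3 and 17.2 CPM in WT, and URE mice had 30.5, 9.18, 2.78 and 19.1 CPM in LSKs and 8.87, 10.5, 2.87 and 5.69 CPM in GMPs (difference −4.38, adjusted p = 0.00183). *Gna14*, a G protein alpha subunit, rose from 2.11 to 3.09 to 11.7 to 17.3 CPM in WT and was at 23.5 to 49.3 and 5.9 to 35.6 CPM in URE mice (difference −3.23, adjusted p = 0.00461), where LSKs were already above WT GMPs. In URE mice *Gna14* was called as lower without replicate 3 of the GMPs (−1.20) or the LSKs (−1.16). *Gria3*, a glutamate receptor subunit, rose from 41.7 to 59.3 to 149.7 to 204 CPM in WT and was at 14.1 to 26.3 and 15.4 to 25.4 CPM in URE mice (difference −1.77, adjusted p = 0.00329).

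Fewer genes moved in opposite directions. *Ets1*, an ETS family factor of lymphocytes, had 38.3, 52, 13.7 and 35.7 CPM in URE LSKs and 146, 142, 57.9 and 113 CPM in URE GMPs, and 91.3, 75.2, 76.9 and 73.3 CPM in WT LSKs and 30.3, 32.4, 21.3 and 47.3 CPM in WT GMPs. It rose by 1.74 (adjusted p = 0.000103) without and fell by 1.33 (adjusted p = 0.000536) with the element, a difference of 3.09 (adjusted p = 0.00042). *Pik3ap1*, an adaptor that recruits PI3 kinase, rose by 2.13 and fell by 1.02 in WT (difference 3.09, adjusted p = 0.00291). *Itpripl1*, a membrane protein gene, fell by 1.44 in URE mice and rose by 0.76 in WT (difference −2.19, adjusted p = 0.00317).

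The genes with the smallest p-values also included *Sqor* and *Abcb1b*. *Sqor*, which oxidizes sulfide in mitochondria, rose by 2.44 (adjusted p = 0.000131) and had a log2 fold change of −0.33 in WT (adjusted p = 0.0797; difference 2.80, adjusted p = 8.15e-05). *Abcb1b*, a drug efflux pump, had 24.3, 25.1, 31.1 and 22.7 CPM in URE LSKs and 4.24, 5.59, 5.64 and 4.79 CPM in URE GMPs, and fell further than in WT (difference −1.92, adjusted p = 5.91e-05).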

How the data were processed

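Poly(A) RNA of sorted bone marrow cells (at most 10 ng per sample) was made into paired-end libraries without strand or molecular identifiers. Per the labels, reads were quantified by Salmon on GRCm38, and the deposited values are estimated counts per gene (expected counts), which the authors rounded to whole numbers. The annotation release is not given in the sources used here. All 54347 genes and 16 libraries were read. Groups came from the sample labels.

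URE GMPs and URE LSKs were compared with edgeR 4.0.16 (R 4.3.3) by its quasi-likelihood test after filterByExpr, with TMM scaling and the replicate number as a block. WT libraries were fitted alike, and the difference of the changes was an interaction term over 16 libraries with the block. Genes were called at a Benjamini-Hochberg adjusted p below 0.05 and a fold change above 1.5 (the interaction at the adjusted p alone). Standard errors were taken from the size of the log2 fold change and its F value. CPM used TMM factors of all 16 libraries. Where a group was at 0, a floor of 3 counts over the group was used, and the medians of the stem cell, lymphoid, and basophil, mast and eosinophil lists were the same with such genes at their bound. Intervals of single libraries would cover counting error only, and with 20028302 counts or more the spread between mice limits the precision. The authors' methods used DESeq2, version 1.42.0 of which served as an alternative.

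The same number paired the libraries: deviations from the group means correlated at 0.444 to 0.581 within numbers and −0.506 to 0.403 between them, and 8 of 8 libraries correlated best with their own number. The block takes out level differences between replicate numbers. P-values of the URE and the WT fit therefore measure how far the change from LSK to GMP varied between the numbers. Repeat libraries differed by far more than counting noise. On simulated counts of 14395 genes for this comparison, the block fit recovered 188 of 191 changed genes with no replicate effect (8 false calls) and 184 of 187 with one, where the fit without the block recovered 110. The simulated replicate effect (SD 0.5, log2) was shared by both cell types of a number, so the gain from the block was built in. Few genes changed, all by the same size, so the recovery does not carry over to the real data.

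Alternatives were the block, DESeq2, other scalings, filters and thresholds, thinning, leaving out each library, replicate pairs, and promoter windows of 100 bases. List counts without single libraries were added after seeing the data. Named genes were *Spi1*, the 15 largest rises and falls, up to 5 genes per class of difference, the 10 smallest interaction p-values and members of the lists, some of which are not reported here. The genes and lists were chosen with earlier results of these data known. Of the authors' cluster markers and signatures, given by gene in the study's supplement, only members were counted. Promoters (RefSeq, GRCm38.p6) matched 10329 of 14383 symbols tested. Genes named as sharing exon bases are uncertain because strand was not kept.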

Additional observations from a re-analysis of the deposited data

Results flagged for a closer look

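A library that lay apart from the other 3 of its group (a gap to the nearest of them beyond Dixon's 95% critical value for 4 samples) was found for some of the named genes, and chance gives such a gap in about 1 of 20 groups. Both URE groups were scanned for each named gene, 156 of which were tested in URE mice, so some of these gaps would come by chance. The URE GMP replicate 2 was the high library for *F13a1* (453 CPM), *Irf8* (129 CPM), *Cybb* (75.3 CPM), *Nfam1* (79.9 CPM), *Csf1r* (26.3 CPM), *Dmkn* (54.1 CPM) and *Ctsz* (269.5 CPM). For *Cd74* the high URE GMP library was replicate 3 (12.7 CPM). The URE LSK replicate 2 was likewise high for *F13a1* (5.37 CPM), *Irf8* (9.05 CPM) and *Cybb* (6.23 CPM), so the pair of libraries with that number shared the pattern. Replicate 3 was high for *Pf4* in URE LSKs (76.6 CPM) and URE GMPs (118 CPM) and, in URE LSKs, for *Ppbp* (355 CPM against at most 0.133 CPM in the other 3). Single high libraries were also found in URE LSKs for *Prg2* (22.2 CPM, replicate 4), *Sulf2* (118 CPM, replicate 1), *Ctsc* (242 CPM), *Tkt* (524 CPM), *Gimap3* (59.2 CPM, replicate 2) and *Ptgds* (16.1 CPM, replicate 2), and single low libraries in URE GMPs for *Ccnd1* (3.24 CPM), *Csf2rb* (43.6 CPM) and *H2-D1* (2352 CPM).

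The change from LSK to GMP differed between URE and WT mice for 1047 genes by the interaction term of edgeR at an adjusted p below 0.05. Among the granule genes, the difference (URE change minus WT change, log2) was above 0, at 2.61 for *Prtn3*, 3.12 for *Prss57*, 1.16 for *Mpo* and 1.23 for *Srgn*. For the neutrophil and phagocyte genes it was 3.30 for *Lcn2*, 1.56 for *Pglyrp1*, 1.03 for *Anxa1*, 2.95 for *Ncf4* and 2.41 for *Cx3cr1*. It was 0.97 for *Fcgr3*, which is not a finding because the GMP gate selects on Cd16/32. The transcription factor genes had 2.66 for *Spi1*, 1.90 for *Id1* and 3.09 for *Ets1*. For lymphoid and T cell genes it was 6.25 for *Igll1*, 2.07 for *Vpreb1*, 2.70 for *Rag2*, 3.37 for *Trat1*, 3.82 for *Tcf7*, 1.51 for *Gata3* and 1.56 for *Lck*. Values for the class I and interferon-stimulated genes were 2.46 for *H2-Q7*, 2.04 for *H2-Q6*, 0.84 for *H2-D1* and 2.37 for *Ifit3*. The receptor and integrin genes had 1.08 for *Csf3r*, 1.01 for *Il3ra*, 0.82 for *Ifngr1* and 1.26 for *Itgb2*. For the metabolic, stress and cell cycle genes it was 4.53 for *Fbp1*, 1.70 for *Hk3*, 2.80 for *Sqor*, 1.29 for *Xbp1*, 1.73 for *Mvd*, 1.46 for *Srebf2*, 1.19 for *Atg12*, 0.85 for *Gabarap* and 1.05 for *Cdkn1a*. The other genes that rose in URE mice had 6.19 for *Epha7*, 5.31 for *Ednra*, 5.03 for *Shroom2*, 2.83 for *Dock9*, 3.58 for *Nfam1*, 3.09 for *Pik3ap1* and 3.09 for *Ptgds*. Among the genes that fell in WT alone it was 4.65 for *Tinagl1*, 3.11 for *Igf2r* and 2.83 for *Sytl1*.

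Differences below 0 were −1.18 for *Hoxa9*, −2.0 for *Procr*, −2.52 for *Tek* and −1.15 for *Cd27*, all of them stem cell genes. The lymphoid and class II genes had −1.08 for *Flt3*, −4.38 for *Btla*, −2.55 for *Cd74*, −1.94 for *H2-Aa* and −1.13 for *H2-DMa*. For receptor and adhesion genes it was −2.51 for *Il6st*, −7.07 for *Il5ra*, −1.86 for *Tlr2* and −1.04 for *Itga6*. Among factors and granule genes, values were −3.46 for *Klf4*, −2.26 for *Maf* and −4.23 for *Mmp8*. The metabolic, cell cycle and survival genes had −3.37 for *Ldhb*, −1.13 for *Hk2*, −0.78 for *Ctsz*, −0.82 for *Chaf1b*, −2.70 for *Ccnd1* and −1.52 for *Bcl2*. For the other genes that fell in URE mice it was −1.92 for *Abcb1b*, −2.94 for *P2rx7*, −2.45 for *Sulf2*, −2.46 for *Parm1*, −2.19 for *Itpripl1*, −2.08 for *Matn2* and −1.90 for *Rab27b*. Those of the genes that rose in WT alone were −4.38 for *Nrp1*, −3.23 for *Gna14* and −1.77 for *Gria3*. The sizes for *Igll1* and *Il5ra* depend on the prior count, since a URE group was at 0.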

How the results depend on the processing

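The cause of the changes below was not tested. The 1909 genes that rose became 737 with replicates 2 and 3 alone and 1072 at a fold change above 2, and the 2682 that fell became 913 with replicates 2 and 3 alone and 1779 at an adjusted p below 0.01. Leaving out 1 URE library gave 1452 to 2291 genes that rose and 1855 to 2797 that fell. Under the other settings (no replicate block, DESeq2, other scalings and filters, thinning, the 16-library fit, and without the genes of at least 1% of counts) the counts stayed within 1.5 times, and DESeq2 without the replicate block shared 1567 (82.1%) of the 1909 and 1961 (73.1%) of the 2682. The numbers pair the libraries, and without the replicate block 1325 genes rose and 1808 fell. The 1047 genes whose change differed from WT became 194 with no replicate block, 2015 with DESeq2 and the block, 307 with replicates 1 and 4 alone, 2 with replicates 2 and 3 alone and 309 at an adjusted p below 0.01. Leaving out 1 of the 16 libraries gave 563 (without the WT LSK replicate 1) to 1700 (without the URE LSK replicate 3), with 617, 673, 630, 655 and 677 without the URE GMP replicate 4, the URE LSK replicate 1, the WT GMP replicates 2 and 4 and the WT LSK replicate 2.

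Of 156 named genes tested in URE mice, 145 kept direction and call without each of the 8 URE libraries. Reversals were limited to genes not called: *Gria3* (0.18 with replicates 1 and 4 alone, and −0.24 to 0.21 over the libraries left out), *Sytl1* (−0.042 with replicates 2 and 3 alone, and −0.026 to 0.51 over the libraries left out), and, with replicates 2 and 3 alone, *Nrp1* (0.13), *Prdm16* (0.19) and *Tinagl1* (−0.028). Without the replicate block the URE calls of *Bcl2*, *Cd14*, *Csf3r*, *Cybb*, *H2-Q7*, *Mvd* and *Pf4* were lost, and so were 45 of 79 differences from WT. The log2 fold changes of these 7 genes were then −0.66, 2.69, 1.12, 2.81, 0.86, 1.74 and 1.22, and that of *Pf4* was 2.38 with the block. The differences that lost their call when 1 library was left out did so without 1 (*Klf4*, *Trat1*) to 14 (*Itgb2*, *Rab27b*) of the 16 libraries, as given beside each gene. Other settings that kept all libraries and the block removed the difference of *Csf3r* (DESeq2 size factors, and without the 1% genes), *Gata3* (without the 1% genes), *Rab27b* (thinning, and without the 1% genes), *Mmp8* (thinning) and *Vpreb1* (no filter), with adjusted p of 0.0501 to 0.0586. *Camp*, *Csf1r*, *Gna14*, *Hoxa7*, *Hoxb4*, *Ifit3*, *Igf2r*, *Nrp1*, *Rag2*, *S100a9* and *Tinagl1*, not called in URE mice, were called under at least 1 alternative. Without the block, list counts that rose went from 20 to 8 for mitosis, 47 to 30 for oxidative phosphorylation, 9 to 4 for DNA replication, 7 to 1 for cholesterol synthesis and 6 to 3 for the NADPH oxidase, and the 4 erythroid genes that fell became 1. Ribosomal protein genes that rose went from 11 to 1. In the study's sets, counts that fell went from 20 to 8 for basophil, 26 to 12 for erythroid and 5 to 3 for monocyte progenitor markers. They went from 43 to 24 for signature 2 and from 38 to 23 for signature 4. In windows of 100 bases, 27.3% of the primary granule promoters and 9.1% of all tested held GAGGAA.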

Other observations

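Some genes named by the size of their change have no assigned place in the progenitor step. *Pcdh11x*, a protocadherin gene, was close to 0 in the other groups and had 19.7, 9.56, 15.2 and 26.8 CPM in the 4 URE GMP libraries, with 0, 0, 0 and 0.753 CPM in URE LSKs and at most 0.0336 CPM in any WT library. All 4 URE GMP libraries were above every other library, and the difference from WT was not called (adjusted p = 0.292). *Myl10*, a myosin light chain gene, and *Sgsm1*, a regulator of small GTPases, fell in URE mice (log2 fold changes −5.45 and −5.55, adjusted p = 0.000232 and 7.18e-05) and in WT (−4.94 and −3.80), although their LSK levels ran from 2.77 to 83 and from 11.3 to 82.1 CPM over the URE libraries. *Gimap3*, a GTPase of lymphocyte survival, fell from 6.31 to 59.2 to 0.0563 to 0.41 CPM (−5.92, adjusted p = 7.72e-05).

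*Ptgds*, which makes prostaglandin D2, had 8.07, 16.1, 8.09 and 7.95 CPM in URE LSKs and 25.9, 36.9, 15.5 and 21 CPM in URE GMPs. It rose by 1.26 (adjusted p = 0.00154) in URE mice and fell by 1.71 in WT (difference 3.09, adjusted p = 0.000726). *Matn2*, a matrix protein gene, did the reverse, with 58.5, 25.7, 47.9 and 39.2 CPM in URE LSKs and 26.5, 17.3, 20.2 and 14.9 CPM in URE GMPs (−1.13, adjusted p = 0.00186), and a WT rise of 0.93 (difference −2.08, adjusted p = 0.00129). *Parm1*, a glycoprotein gene, fell in URE mice alone, from 24.4 to 39 to 4.33 to 18 CPM, and WT libraries had 1.63 to 3.34 and 2.79 to 4.94 CPM (difference −2.46, adjusted p = 0.0118).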
